A study of Mus musculus with 24 samples.

Results

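The acute transcriptional response to lipopolysaccharide (LPS) was compared between WT and Irg1-/- bone marrow-derived macrophages (BMDMs). WT cells can make itaconate through Acod1, and Irg1-/- cells cannot. The paper places the start of itaconate accumulation in BMDMs some hours after LPS is added. That start is later than the time point compared here. The differences below therefore concern loss of the gene, and the effect of accumulated itaconate was not tested. The comparison rests on the 6 libraries labelled LPS 3h, 3 from Irg1-/- cultures and 3 from WT cultures, out of 24 libraries in 8 groups, with the 6 unstimulated libraries, 3 of each genotype, as the starting point of the response. All genes were used: 11878 of 22165 genes passed the filter on low counts and were tested.

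BMDMs are primary macrophages grown from bone marrow precursors. Here the marrow came from WT C57BL/6N mice and from Irg1-/- mice on the same background, which were 8 to 20 weeks old. The authors state, for their in vitro experiments in general, that mice were matched for age and sex and both sexes were used. Precursors were differentiated with M-CSF at 20 ng/ml for 7 days. The unstimulated cells and the LPS 3h cells received no LPS during the first 24 h, and the LPS 3h cells then received LPS for 3 h. The knockout is constitutive and present in every cell, so that it was in place during differentiation too. Each group held 3 independent cultures. The number of mice behind them is not stated, and p-values therefore measure the spread between cultures.

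LPS binds CD14 and the TLR4 receptor complex on macrophages. Signals through the adaptor MyD88 activate NF-kappaB and AP-1, which switch on cytokine and chemokine genes, and signals through the adaptor TRIF induce interferon beta, which in turn switches on interferon-stimulated genes. Acod1, also called Irg1, is among the most strongly LPS-induced genes of macrophages and encodes aconitate decarboxylase 1, the mitochondrial enzyme that makes itaconate from the TCA cycle intermediate cis-aconitate. Itaconate inhibits succinate dehydrogenase and can modify cysteines of proteins. It was also reported to switch on responses driven by the transcription factor NRF2.

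The 6 LPS 3h libraries held 7797424 to 13924749 gene counts each, and the unstimulated ones 3927378 to 15642267. Cell identity was checked with marker lists. Summed macrophage markers such as Adgre1, Csf1r, Cd68 and Lyz2 reached 6276 to 8094 CPM (counts scaled to library size) in WT and 5848 to 7366 CPM in Irg1-/- cells after LPS. Neutrophil markers summed to 563 to 673 CPM in WT and 416 to 604 CPM in Irg1-/- cells, and fibroblast and stromal markers to 320 to 430 CPM and 300 to 442 CPM. Lymphocyte markers summed to 1.06 to 5.47 CPM in WT and 2.78 to 4.22 CPM in Irg1-/- cells, with 4 of 10 genes, Cd3d and Cd79a among them, at 0 in all 6 libraries. Dendritic cell markers summed to 2.25 to 4.24 CPM and 6.19 to 7.56 CPM, with Xcr1 and Cd209a at 0. Siglech (0.365, 1.90 and 1.72 CPM against 5.87, 3.65 and 3.17 CPM) and Zbtb46 were higher in every Irg1-/- than in every WT culture. Ccr7 and Flt3 overlapped, Flt3 with 0.729, 0.356 and 0.530 CPM in WT and 0.309, 0 and 0.528 CPM in Irg1-/- cells. The Y-linked gene Ddx3y was at 140, 151 and 234 CPM in WT and at 154, 247 and 214 CPM in Irg1-/- cells, so that each of these cultures held male cells. The share of female cells was not tested. In bulk samples, fewer cells of a type and less RNA per cell cannot be told apart. Log2 CPM values of a WT and an Irg1-/- library correlated at 0.927 to 0.952 across genes, which are not independent replicates, against 0.937 to 0.949 within WT and 0.932 to 0.945 within Irg1-/- cultures. The number in the prefix of each column header, here called the library pool, differed in part by genotype. WT cultures 1, 2 and 3 after LPS were in pools 1, 2 and 4, Irg1-/- culture 1 was in pool 2 and Irg1-/- cultures 2 and 3 were in pool 3. Pool 2 therefore holds the single pair of both genotypes after LPS 3h, WT culture 2 and Irg1-/- culture 1, and its difference is given beside the results as the pool 2 value, without a test. All 6 unstimulated libraries were in pool 4, so that the treatment cannot be told apart from the pool in Irg1-/- cells.

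Acod1 (ENSMUSG00000022126, mm10 chr14:103046977-103056573, plus strand) gave 22837, 28063 and 15643 CPM in the 3 WT cultures after LPS 3h. The Irg1-/- cultures gave 26.4, 7.94 and 1.58 CPM, which were 256, 50 and 9 counted reads. Unstimulated WT cells held 9.41, 5.82 and 10.0 CPM and unstimulated Irg1-/- cells 7.79, 11.9 and 9.64 CPM. The groups lay far apart after LPS and overlapped before it. The knockout therefore showed in the stimulated cells, with a log2 fold change of -10.82 (SE 0.68, n = 3 against 3, adjusted p = 2.68e-12), and it matched the labels of all 6 libraries. The log2 response of Acod1 to LPS was 11.35 in WT (SE 0.69) and 0.33 in Irg1-/- cells (SE 0.48). The pool 2 value was -10.05, and the Irg1-/- culture with the highest level was the culture that shared a pool with a WT library. The part of shared pools in the remaining reads was not tested.

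Apart from Acod1, no gene passed the threshold between the genotypes after LPS 3h. Acod1 was the 1 gene of 11878 with an adjusted p under 0.05 (0.00842% of genes tested), and the gene next to it had an adjusted p of 0.134. At an unadjusted p under 0.05 there were 694 genes, 5.84% of those tested. DESeq2's Wald test called 8 genes: Acod1, Dnajb12, Plek, F13a1, Zfp512b, Sirpb1b, Sumf2 and AC149090.1. Plek was at 2112, 2113 and 1967 CPM in WT and at 4460, 4975 and 3256 CPM in Irg1-/- cells, without overlap. Its log2 fold change was 1.04 with an adjusted p of 0.256 by edgeR's test, against 0.00682 by DESeq2's. In unstimulated cells of both genotypes Plek stood at 73.8 to 130 CPM. Without a filter on low counts edgeR's test called 32 genes among 16009, and without Irg1-/- culture 1, the culture in pool 2, it called 6. The log2 fold changes of all genes had a median of -0.018 and an interquartile range from -0.323 to 0.299. All 3 Irg1-/- cultures lay above all 3 WT cultures for 479 genes (4.03%) and below them for 600 genes (5.05%), and these 2 shares are the background for the counts of non-overlapping genes below.

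A count of 1 does not show that the other genes were equal, and the intervals give the size of difference that remains possible. For 4082 genes (34.4% of those tested), the 95% interval of the log2 fold change lay within -1 and 1, that is, within a 2-fold difference either way. The share rose with expression, to 3839 of 6471 genes (59.3%) with a mean of at least 10 CPM and to 1495 of 2051 genes (72.9%) with a mean of at least 100 CPM. For 63 genes the interval lay within a 1.5-fold difference. The median SE of a log2 fold change was 0.417. For the other genes tested the interval reached past a 2-fold difference, or, for 84 genes at 0 in all 6 libraries, could not be given.

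LPS moved a large part of the transcriptome in both genotypes. In WT cells 1874 genes rose (15.8% of those tested) and 1931 fell (16.3%), and in Irg1-/- cells 2018 rose (17% of those tested) and 2242 fell (18.9%). Of the genes that rose, 1587 were called in both genotypes, which is 84.7% of the WT genes and 78.6% of the Irg1-/- genes. Of those that fell, 1347 were called in both, 69.8% of the WT genes and 60.1% of the Irg1-/- genes. No gene was called in opposite directions (0). With the library pool as a term, 2361 genes were called in Irg1-/- cells, 1396 higher and 965 lower, and 3864 in WT cells. Across all genes tested, the WT and Irg1-/- responses correlated with a Pearson coefficient of 0.774, which was 0.936 among genes with a mean of at least 10 CPM and 0.958 among those with at least 100 CPM. Within the classes defined below it was 0.794 for LPS-induced and 0.482 for LPS-repressed genes. These coefficients describe genes within 4 groups of 3 libraries, and the responses of the genotypes share no library. Both responses start from unstimulated libraries of pool 4, so that a shift of that pool would enter both. Its part in the coefficients was not tested.

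**Figure D1:**
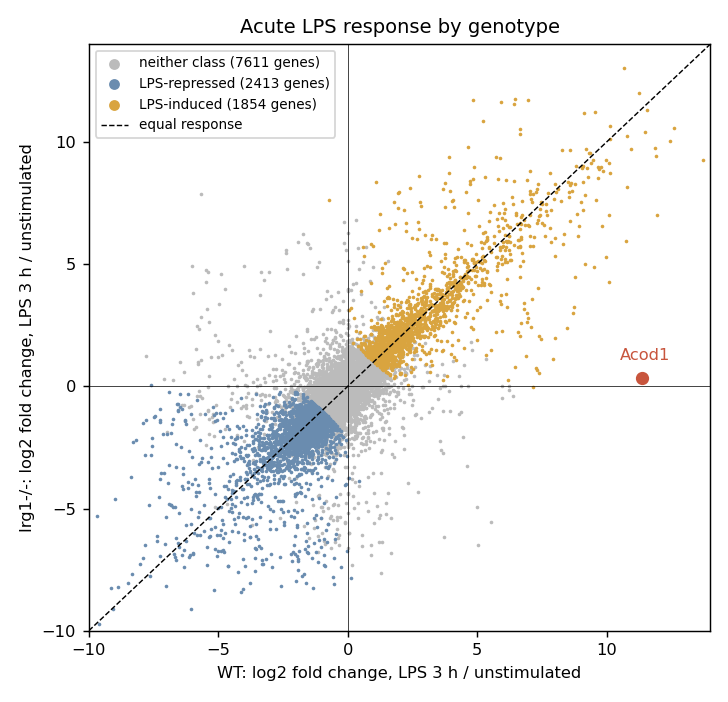
Log2 fold change of each gene tested after LPS 3h against unstimulated cells in WT cells (horizontal axis) and in Irg1-/- cells (vertical axis), with the 1854 LPS-induced, the 2413 LPS-repressed and the 7611 remaining genes as separate colours and a dashed line of equal response. Induced genes lie along the line, repressed genes scatter more widely around it, and Acod1, at 11.35 in WT and 0.33 in Irg1-/- cells, lies far below it. Points far from the line include genes at or near 0 counts in a group, whose fitted values depend on the prior count.

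The test of the difference itself gave the same gene. The response differed between genotypes for Acod1 (interaction of -11.02 on the log2 scale, SE 0.78, adjusted p = 6.60e-11) and for no other gene of 11878 (0.00842% called). At an unadjusted p under 0.05 there were 675 genes, and DESeq2 called 4. The next smallest adjusted p was 0.097, for Tnfsf15.

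LPS-responsive genes were defined by the response averaged over both genotypes, which favours neither direction of the difference between them: 1854 genes (15.6% of those tested) were induced and 2413 (20.3%) repressed by more than 2-fold. Averaging selects for genes that moved the same way in both genotypes, as did 1852 of the induced genes against 81.6% of all genes. The median response of the induced genes was 2.12 in WT and 2.21 in Irg1-/- cells on the log2 scale. With genes near 0 set at their bound, these medians were 2.07 and 2.09. The difference between genotypes after LPS had a median of 0.030 over the induced genes, with an interquartile range from -0.178 to 0.283, and the median pool 2 value was 0.109. The interval lay within -1 and 1 for 892 induced genes (48.1%). Irg1-/- cultures lay above WT for 88 induced genes (4.75%) and below for 60 (3.24%), beside the 4.03% and 5.05% of all genes. Repressed genes had a median response of -1.70 in WT and -1.84 in Irg1-/- cells, and their median difference between genotypes was -0.063. The interval lay within -1 and 1 for 425 of them (17.6%).

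The proximal promoters of a cytokine, a chemokine and an interferon target are shown beside that of Acod1, as examples of sequences upstream of induced genes. Each run holds the 150 bases before the transcription start in RefSeq (GRCm38.p6), 5′ to 3′ on the strand of the gene. For Acod1 this start lies downstream of the GENCODE start given above, so that the end of its run lies inside the GENCODE gene. Capitals mark matches to an NF-kappaB motif, which is GGG and TTTCC with 2 free bases between them, or to the core of an interferon response element, which is a repeated GAAA with 2 free bases between the copies, each searched on both strands.
Acod1, chr14:103046862-103047011, plus strand: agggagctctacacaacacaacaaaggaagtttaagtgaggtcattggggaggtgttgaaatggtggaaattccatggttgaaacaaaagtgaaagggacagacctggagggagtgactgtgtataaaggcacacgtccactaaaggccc
Cxcl2, chr5:90903749-90903898, plus strand: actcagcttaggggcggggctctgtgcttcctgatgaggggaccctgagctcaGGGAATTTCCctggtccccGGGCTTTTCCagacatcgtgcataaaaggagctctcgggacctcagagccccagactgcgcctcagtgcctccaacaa
Il6, chr5:30012964-30013113, plus strand: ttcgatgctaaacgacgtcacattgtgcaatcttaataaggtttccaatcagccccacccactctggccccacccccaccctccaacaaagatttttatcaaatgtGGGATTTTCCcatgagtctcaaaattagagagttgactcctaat
Ifit1, chr19:34640739-34640888, plus strand: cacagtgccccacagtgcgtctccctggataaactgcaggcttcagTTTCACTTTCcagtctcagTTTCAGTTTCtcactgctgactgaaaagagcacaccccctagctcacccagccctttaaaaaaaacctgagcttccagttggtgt

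Cxcl2 held 2 NF-kappaB matches, starting 97 and 78 bases before the start, Il6 held 1, starting 44 bases before it, and Ifit1 held 2 matches to the interferon response element, starting 104 and 85 bases before it. The Acod1 window held neither set of letters, which says nothing about whether the factors bind there. Over the window from 250 bases before to 50 bases after the start, the NF-kappaB motif was found in 1.62% of all 27025 RefSeq promoters, in 1.66% of those of genes tested, in 49 of 1444 promoters of induced genes (3.39%) and in 19 of 1926 promoters of repressed genes (0.987%). The interferon response element core was found in 3.49% of all promoters, in 3.35% of those of genes tested and in 110 promoters of induced genes (7.62%), against 1.82% of those of repressed genes. The AP-1 motif TGANTCA was found in 7.93% of all promoters, in 5.01% of those of genes tested, in 8.38% of those of induced genes and in 4.00% of those of repressed genes. Matches are descriptions of letters, not of binding.

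Cytokine genes rose in both genotypes, and none of the 21 tested was called between them. Il1b, the precursor of interleukin-1 beta, gave 6259, 5892 and 4467 CPM in WT and 6745, 6156 and 4152 CPM in Irg1-/- cells after LPS. The groups overlapped throughout, and the log2 fold change was 0.04 (SE 0.30, 95% interval -0.57 to 0.65). Il1b stood at 4.38 to 5.66 CPM in unstimulated WT cells and 6.97 to 12.8 CPM in unstimulated Irg1-/- cells, and it rose by 10.10 and 9.14 on the log2 scale. Il12b, which encodes the p40 subunit of interleukin-12 and interleukin-23, gave 2155, 2550 and 3309 CPM in WT and 3053, 3116 and 2637 CPM in Irg1-/- cells, again with overlap. Il6 reached 378, 502 and 393 CPM in WT and 1251, 280 and 441 CPM in Irg1-/- cells, with a log2 fold change of 0.63 and an interval from -0.35 to 1.61. A single Irg1-/- culture lay far above the other 5, and it was the culture in pool 2, where the difference was 1.32. Il1a gave 5815, 2746 and 2687 CPM in WT and 6038, 2556 and 2460 CPM in Irg1-/- cells, with culture 1 of each genotype above the rest.

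Of the 21 cytokines, 19 rose in WT and 20 in Irg1-/- cells, beside 15.8% and 17% of all genes. Their difference between genotypes had a median of 0.037, beside -0.018 for all genes, and ranged from -0.82 to 1.08. In 4 of them the 3 Irg1-/- cultures lay above the 3 WT cultures, and in 0 below, beside 4.03% and 5.05% of all genes. Il27, a subunit of interleukin-27, was at 633, 889 and 792 CPM in WT and at 1039, 1246 and 1123 CPM in Irg1-/- cells (log2 fold change 0.56, adjusted p = 0.979). Il18, the precursor of interleukin-18, was at 61.2, 74.1 and 59.3 CPM against 148, 112 and 75.3 CPM (log2 fold change 0.79, 95% interval -0.01 to 1.59, adjusted p = 0.856). Il10, an anti-inflammatory cytokine, was at 62.3, 60.0 and 48.2 CPM against 84.3, 75.9 and 84.6 CPM (log2 fold change 0.52). The fourth was Il33, at under 5 CPM in every culture. None of these differences passed the threshold of the test across all genes.

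Chemokine genes rose in both genotypes as well, and none was called between them. For Cxcl2, which attracts neutrophils, the WT cultures reached 31603, 19164 and 19888 CPM and the Irg1-/- cultures 25077, 16095 and 14498 CPM. The groups overlapped, and the log2 fold change of -0.34 (95% interval -0.95 to 0.26) was the one with the smallest unadjusted p among the 18 chemokines tested. Cxcl10, an interferon-induced attractant of T cells whose gene overlaps Art3 on the other strand, gave 13719, 10722 and 9905 CPM in WT and 11898, 9234 and 9086 CPM in Irg1-/- cells. Ccl4 gave 7500, 5532 and 6670 CPM and 6974, 5962 and 5289 CPM. Of the 18 genes, 16 rose in WT and 17 in Irg1-/- cells, beside 15.8% and 17% of all genes. The list's median difference between genotypes was -0.116, 11 genes had an interval within -1 and 1, and in 0 genes did the groups separate in either direction.

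**Figure D2:**
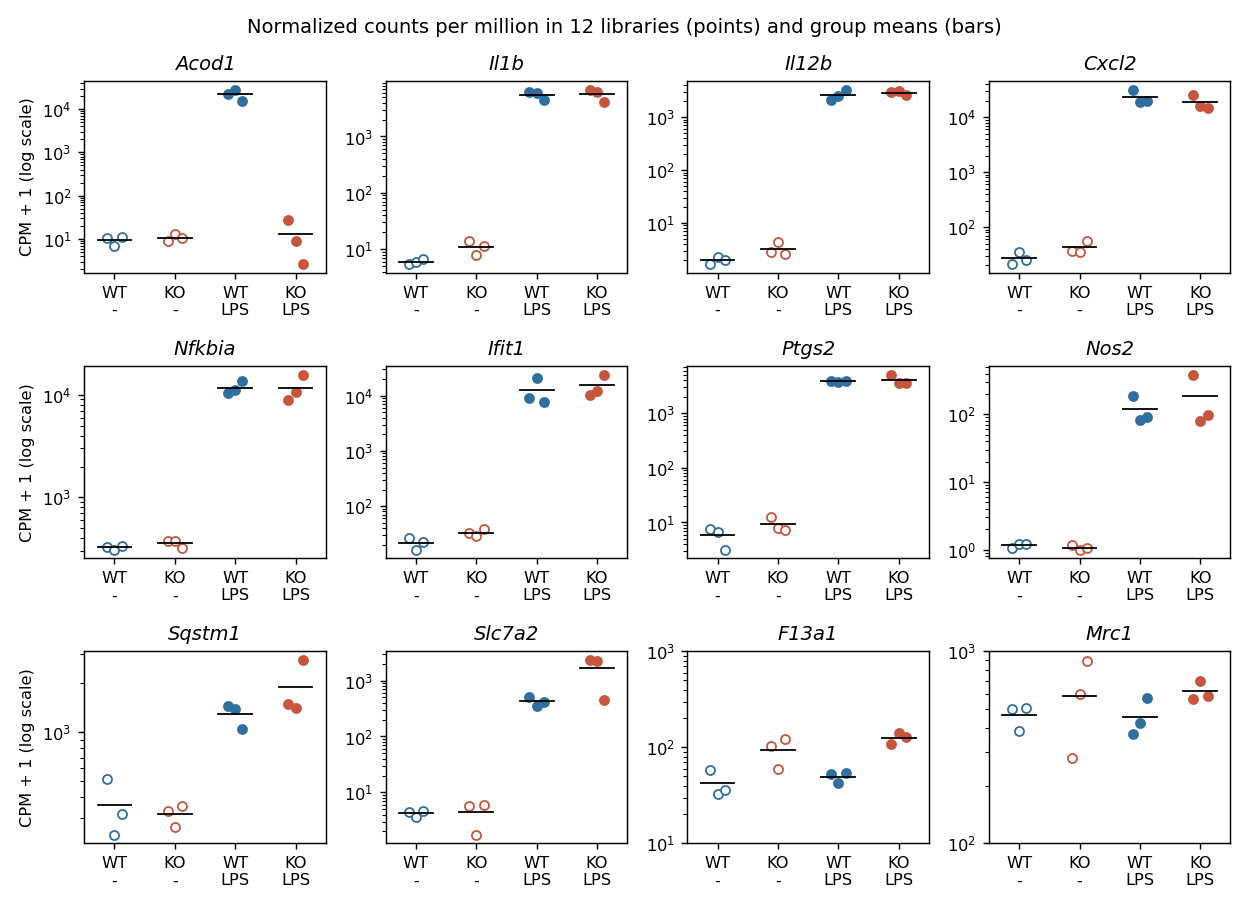
CPM + 1 on a log axis for 12 genes in each of the 12 cultures, with open circles for unstimulated cells, filled circles for LPS 3h, blue for WT, red for Irg1-/- and bars for group means. After LPS the genotypes overlap for Il1b, Il12b, Cxcl2, Nfkbia, Ifit1, Ptgs2 and Nos2, lie apart for Acod1 and F13a1, and for Slc7a2 2 of 3 Irg1-/- cultures (2329 and 2219 CPM) lie above WT.

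NF-kappaB subunits and feedback inhibitors are induced by the pathway that they belong to. Nfkbia, which encodes the inhibitor IkappaB-alpha, gave 10408, 11117 and 13652 CPM in WT and 8882, 10704 and 15610 CPM in Irg1-/- cells. Its log2 fold change was 0.00 (95% interval -0.54 to 0.54), and it rose by 5.17 and 5.03 in WT and Irg1-/- cells. In all, 24 of the 25 genes of this list rose in each genotype, beside 15.8% of all genes in WT and 17% in Irg1-/- cells. The median difference between genotypes was 0.103. Tnip3, an LPS-induced inhibitor of NF-kappaB signalling, was at 593, 712 and 730 CPM in WT and at 897, 879 and 1596 CPM in Irg1-/- cells. Its log2 fold change of 0.73 (95% interval 0.15 to 1.31) had an adjusted p of 0.716. Nfkb1 (0.40) and Nfkbiz (0.09) overlapped between the genotypes. Among 21 immediate early and AP-1 genes, 10 rose in WT and 9 in Irg1-/- cells, again beside 15.8% and 17% of all genes. Their median difference between genotypes was -0.018. Junb was at 622, 647 and 662 CPM against 606, 737 and 648 CPM, and the log2 fold changes of Klf6 and Atf3 were 0.02 and -0.06. Klf2, a factor that restrains macrophage activation, had the smallest unadjusted p of this list, with -0.89 (adjusted p = 0.802) and a pool 2 value of 0.43 in the other direction.

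Every type I interferon target of the list, 31 of 31, rose in both genotypes, beside 15.8% of all genes in WT and 17% in Irg1-/- cells. Rsad2, which encodes the antiviral protein viperin, gave 52154, 42781 and 58312 CPM in WT and 51522, 40848 and 54626 CPM in Irg1-/- cells after LPS. The difference of -0.06 was small beside the spread between cultures. Ifit1, an RNA-binding antiviral protein, gave 9103, 21218 and 7635 CPM in WT and 10382, 12357 and 23787 CPM in Irg1-/- cells. WT culture 2 and Irg1-/- culture 3 stood above the rest, and the log2 fold change of 0.29 had an interval from -0.49 to 1.08 and a pool 2 value of -1.03. The 31 differences ranged from -0.36 to 0.70 with a median of 0.078, 21 of the intervals lay within -1 and 1, and the groups separated for 1 gene, Irf1, with Irg1-/- below. Ifih1, which encodes the RNA sensor MDA5, had the highest difference of the list (0.70, adjusted p = 0.963).

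Genes of the LPS receptor complex and its adaptors showed no call among 20 tested. Cd14, the co-receptor that delivers LPS to TLR4, was at 922, 970 and 1071 CPM in WT and at 895, 806 and 777 CPM in Irg1-/- cells, and the log2 fold change was -0.26 (95% interval -0.93 to 0.42). The Irg1-/- cultures lay below WT, as they did for 5.05% of all genes. Myd88 (0.45), Tab2 (-0.33) and Traf3 (0.77) overlapped between the genotypes. The median difference of the list was 0.120. Of 14 inflammasome and pyroptosis genes, 5 rose and 2 fell in WT, and 7 rose and 4 fell in Irg1-/- cells, beside 15.8% and 16.3% of all genes in WT and 17% and 18.9% in Irg1-/- cells. Nlrp3, the sensor of the NLRP3 inflammasome, gave 836, 1326 and 5241 CPM in WT and 1359, 2445 and 1177 CPM in Irg1-/- cells, with 1 high WT culture and overlap of the rest. Casp4, which encodes the intracellular LPS sensor caspase-11, was at 326, 336 and 455 CPM against 377, 428 and 406 CPM. Aim2, a sensor of DNA in the cytosol, was at 301, 313 and 296 CPM in WT and at 375, 407 and 528 CPM in Irg1-/- cells (log2 fold change 0.53, adjusted p = 0.996). Naip5, a sensor of bacterial flagellin, was at 7.47, 6.52 and 10.5 CPM against 5.56, 1.59 and 4.92 CPM (log2 fold change -1.01, adjusted p = 0.802).

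NRF2 targets and metabolic genes are those that itaconate has been linked to. The time point compared here lies before the start of accumulation that the paper gives. These lists therefore cannot show what accumulated itaconate does to such genes. Among 21 NRF2 targets the median difference between genotypes was -0.175 with 0 calls. The Irg1-/- cultures lay above WT in 1 gene, Osgin1, and below in 3, Gclm, Fth1 and Ftl1. Of all genes, 4.03% lay above and 5.05% below. Fth1, the heavy chain of the iron store ferritin, gave 18950, 14512 and 16301 CPM in WT and 14234, 13824 and 10870 CPM in Irg1-/- cells. Its log2 fold change was -0.35 (95% interval -0.94 to 0.23). Prdx1, a peroxidase, was at 4528, 3096 and 3464 CPM against 3551, 2974 and 2443 CPM, and Sqstm1, which encodes the autophagy receptor p62, at 1447, 1380 and 1048 CPM against 1477, 1402 and 2752 CPM. Both overlapped between the genotypes. The smallest unadjusted p of the list was that of Gclc, a subunit of the enzyme that makes the precursor of glutathione, with -0.57 (adjusted p = 0.932). LPS raised 4 of the 21 NRF2 targets and lowered 3 in WT, and raised 4 and lowered 5 in Irg1-/- cells, shares near those of all genes (15.8% and 16.3% in WT, 17% and 18.9% in Irg1-/- cells).

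Of 20 genes of TCA cycle enzymes and succinate dehydrogenase, LPS raised 1 and lowered 3 in WT, and raised 1 and lowered 4 in Irg1-/- cells, where 15.8% and 16.3% of all genes rose and fell in WT, and 17% and 18.9% in Irg1-/- cells. Their median difference between genotypes was -0.044. Ogdh, a subunit of the 2-oxoglutarate dehydrogenase complex, was at 99.5, 109 and 116 CPM in WT and at 90.2, 82.1 and 98.7 CPM in Irg1-/- cells, without overlap (log2 fold change -0.26, 95% interval -0.81 to 0.28). Idh3a, a subunit of isocitrate dehydrogenase, had the smallest unadjusted p of the list, with 8.38, 17.2 and 17.0 CPM against 11.9, 19.4 and 90.1 CPM. The difference of 1.499 (adjusted p = 0.58) came with a single high Irg1-/- culture, and the pool 2 value was -0.52. Among 20 genes of glycolysis and HIF-1alpha targets, 16 intervals lay within -1 and 1 and the median difference was -0.152. Hk2, the hexokinase of activated macrophages, was at 897, 807 and 1072 CPM against 778, 707 and 929 CPM, and Hif1a at 875, 999 and 795 CPM against 1042, 679 and 738 CPM. In the integrated stress response list of 14 genes, Atf4, its central transcription factor, gave 196, 275 and 117 CPM in WT and 197, 222 and 167 CPM in Irg1-/- cells, with a difference of -0.00, and the list's median was -0.026.

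Among 9 genes of nitric oxide and arginine metabolism, the median difference was -0.028. Nos2, the inducible nitric oxide synthase, was at 184, 82.1 and 90.3 CPM in WT and at 380, 79.6 and 97.8 CPM in Irg1-/- cells. The log2 fold change of 0.65 had an interval from -0.31 to 1.60, and the culture at 380 CPM was the one in pool 2. Slc7a2, a cationic amino acid transporter that brings arginine into macrophages, was at 506, 346 and 417 CPM in WT and at 2329, 2219 and 457 CPM in Irg1-/- cells. Irg1-/- cultures 1 and 2 lay far above WT and culture 3 within its range. The log2 fold change was 1.98 (SE 0.52, 95% interval 0.92 to 3.04, adjusted p = 0.31), and the pool 2 value was 2.75. Slc7a2 was among the genes called without a filter on low counts (adjusted p = 9.67e-06), as was Arg1, which encodes arginase 1, in the other direction (adjusted p = 0.0212). Arg1 lay between 4.64 and 37.2 CPM in WT and between 4.05 and 7.72 CPM in Irg1-/- cells, with overlap (-1.54, adjusted p = 0.507 with the filter). Slc7a2 stood at 0.754 to 5.03 CPM in unstimulated cells of both genotypes and rose by 7.03 in WT and 8.82 in Irg1-/- cells on the log2 scale. In the prostaglandin and leukotriene list of 9 genes, Ptgs2, which encodes cyclooxygenase-2, gave 3945, 3776 and 3948 CPM in WT and 5064, 3649 and 3630 CPM in Irg1-/- cells, with a difference of 0.08. The median of that list was 0.032.

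**Figure D3:**
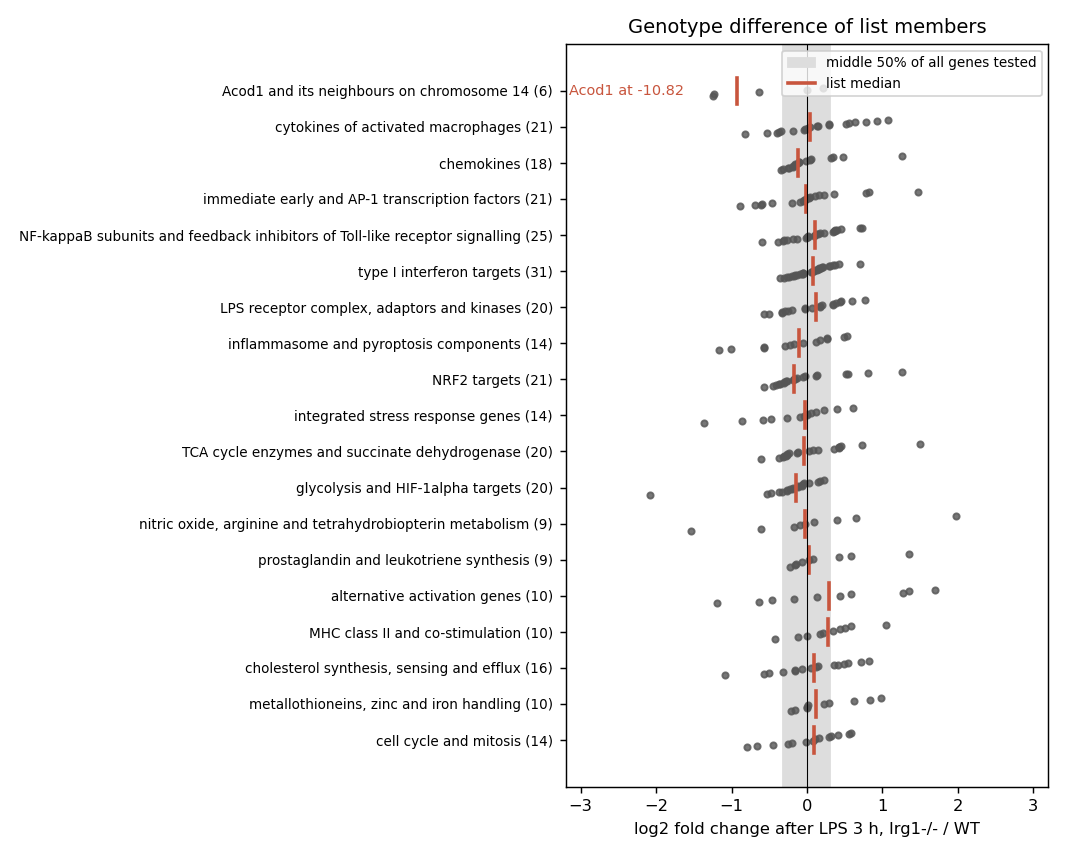
Log2 fold change between Irg1-/- and WT cells after LPS 3h for each tested member (points) of 19 gene lists, with the list median as a red bar and the interquartile range of all 11878 genes, -0.323 to 0.299, as a grey band. Every list median except that of the 6 genes around Acod1 (-0.93) lies inside the band, and the point of Acod1, at -10.82, is beyond the axis and is written in.

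Alternative activation and antigen presentation lists had the highest medians of the lists, 0.285 over 10 genes and 0.281 over 10 genes, inside the interquartile range of all genes. Members went both ways. In the alternative activation list the Irg1-/- cultures lay above WT for 3 genes and below for 2, Chil3 (-0.63) and Klf4 (-0.47). Of all genes, 4.03% lay above and 5.05% below. Mrc1, the mannose receptor, was at 368, 423 and 570 CPM in WT and at 564, 700 and 587 CPM in Irg1-/- cells (log2 fold change 0.44). Il4ra, a subunit of the interleukin-4 receptor, was at 135, 126 and 110 CPM against 178, 194 and 181 CPM (0.58, adjusted p = 0.904). H2-Eb1, a chain of MHC class II, was at 11.3, 6.64 and 9.54 CPM against 24.1, 20.5 and 12.0 CPM (1.05, adjusted p = 0.735). H2-Ab1, another MHC class II chain, lay the other way, at 35.4, 24.7 and 27.3 CPM in WT and 21.7, 21.6 and 21.5 CPM in Irg1-/- cells (-0.43). Summed dendritic cell markers were higher in the Irg1-/- cultures, 6.19 to 7.56 CPM against 2.25 to 4.24 CPM, though Flt3 and Ccr7 overlapped between the genotypes. The part of dendritic cells in the values of these lists was not tested. Cd274, which encodes PD-L1, Cd40 and Cd86 differed by 0.00, 0.22 and 0.18.

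Cholesterol genes (16, median 0.088), metallothionein, zinc and iron genes (10, median 0.112) and cell cycle genes (14, median 0.093) held 0 calls between genotypes. Ch25h, the enzyme that makes 25-hydroxycholesterol, was at 141, 86.4 and 76.3 CPM in WT and at 236, 80.5 and 86.0 CPM in Irg1-/- cells, with 1 high Irg1-/- culture in pool 2. Mt1 and Mt2, which bind zinc and copper, differed by -0.16 and -0.22. Mki67, a proliferation marker, was at 147, 436 and 159 CPM against 280, 239 and 307 CPM and overlapped. Only 1 of the 14 cell cycle genes had an interval within -1 and 1, a smaller share than in any other of the lists.

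**Figure D4:**
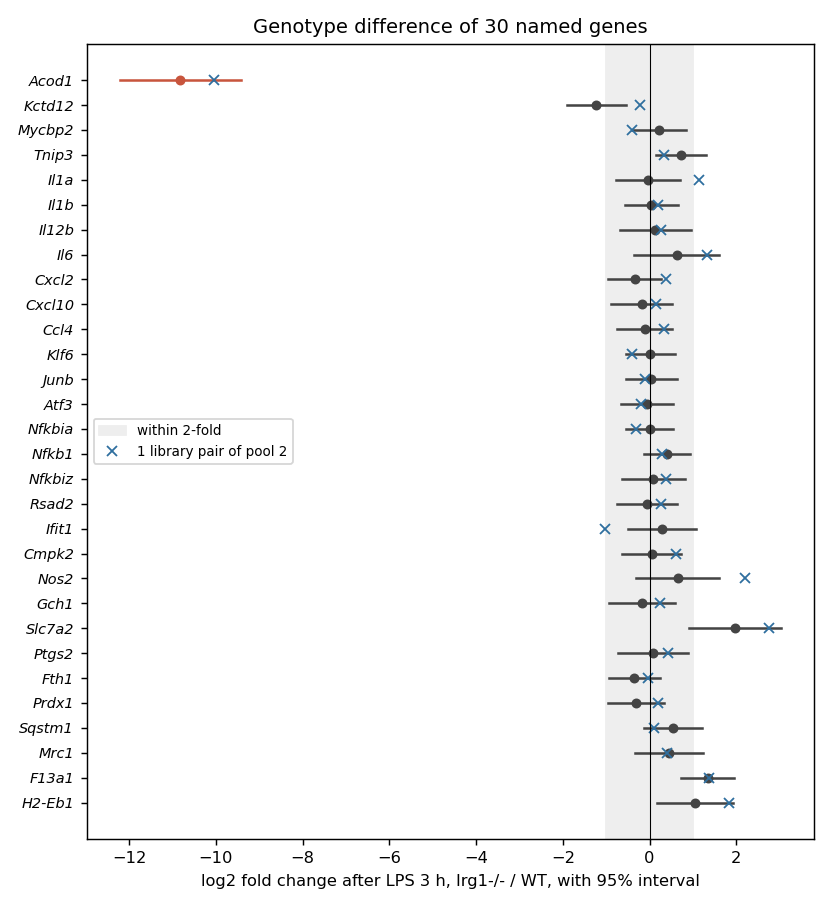
Log2 fold change between Irg1-/- and WT cells after LPS 3h (circles) with its 95% interval (bars) for 30 named genes, with crosses for the pool 2 pair and a grey band from -1 to 1. Acod1, in red, is the called gene, and the intervals of Il1b, Nfkbia and Cxcl2 lie inside the band while those of Slc7a2, Nos2 and Il6 reach beyond it.

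The genes with the highest and lowest averaged response are given by their levels, since the choice itself favours genes that moved in both genotypes. Cxcl9, a chemokine, was at 727, 1252 and 665 CPM in WT and at 948, 556 and 873 CPM in Irg1-/- cells after LPS. Lhx2, a homeobox transcription factor, was at 0 in all 3 unstimulated WT cultures and reached 171, 123 and 149 CPM after LPS, at least 708-fold higher. In Irg1-/- cells Lhx2 was at 0, 0 and 0.482 CPM before and at 185, 145 and 181 CPM after LPS. U90926 was at 0 in all 6 unstimulated cultures and was at least 159-fold higher in WT and at least 68.2-fold higher in Irg1-/- cells after LPS. In the other direction, Cxcr4, a chemokine receptor, fell from 45.4, 48.5 and 51.5 CPM to 0.729, 0 and 1.46 CPM in WT, and from 73.7, 74.3 and 28.3 CPM to at most 0.176 CPM in Irg1-/- cells, at least 134-fold lower. Fam78a was at 0 in all 6 LPS 3h cultures, at least 19.5-fold lower than before LPS in WT and at least 21.5-fold lower in Irg1-/- cells.

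Before LPS, the genotypes differed in 5 genes (0.0421% of those tested), Ccl12, Tnfsf15, Cldn12, Itgb8 and Pnp2, where DESeq2 called 32. Itgb8, an integrin subunit, was at 2.25, 1.72 and 0.975 CPM in unstimulated WT cells and at 0, 0.189 and 0.161 CPM in Irg1-/- cells. Cldn12, a claudin, was at 0.515, 1.43 and 1.61 CPM in WT and at 0.779, 1.70 and 303 CPM in Irg1-/- cells, so that its call rests on a single culture. Pnp2 was at 0 in WT and at 1.56, 0 and 0.482 CPM in Irg1-/- cells. Ccl12, a monocyte attractant, was at 0.064, 0.095 and 0.439 CPM in unstimulated WT cells and at 1.71, 2.83 and 1.66 CPM in Irg1-/- cells (log2 fold change 3.07, adjusted p = 0.0184). After LPS it reached 134, 111 and 90.9 CPM in WT and 171, 135 and 122 CPM in Irg1-/- cells, which overlapped. Tnfsf15, a cytokine of the TNF family, was at 0.45, 0.29 and 0.39 CPM against 1.56, 1.89 and 2.14 CPM before LPS (2.27, adjusted p = 0.0184), and at 1408, 1357 and 1780 CPM against 1034, 1472 and 1473 CPM after it. Both genes were at under 3 CPM before LPS in every culture, and the genotypes overlapped after it.

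Interferon targets were mostly at a higher mean in Irg1-/- cells before LPS, with 0 of 31 past the threshold. Rsad2 was at 62.7, 64.2 and 64.2 CPM in unstimulated WT cells and at 121, 152 and 130 CPM in unstimulated Irg1-/- cells (log2 fold change 1.08, SE 0.34, adjusted p = 0.463). The groups did not overlap before LPS and did after it. The mean was higher in Irg1-/- cells for 28 of the 31 interferon targets before LPS, with a median difference of 0.528. Over all genes tested it was higher for 6029 of 11878, with a median difference of 0.0072. The Irg1-/- cultures lay above WT without overlap for 10 of the interferon targets and below for 0, where 4.34% of all genes lay above and 5.09% below. For the 18 chemokines the median difference before LPS was 0.685, 13 had a higher mean, and 4 lay above without overlap. The median response of the interferon targets was 6.05 in WT and 5.31 in Irg1-/- cells, while their median difference after LPS was 0.078. For chemokines these values, with genes near 0 at their bound, were 7.93 and 6.69, with -0.116 after LPS. All 6 unstimulated libraries were in pool 4, so that these differences before LPS lie within 1 pool. In the NRF2 list the mean before LPS was higher in Irg1-/- cells for 4 of 21 genes, with a median of -0.304.

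The genes nearest to the threshold after LPS 3h were read in the libraries of the other treatments, where the other libraries of each genotype give values that the choice did not use. F13a1, the A subunit of coagulation factor XIII and a macrophage gene, was at 52.1, 41.5 and 52.5 CPM in WT and at 107, 139 and 126 CPM in Irg1-/- cells after LPS 3h, without overlap. The log2 fold change was 1.35 (SE 0.30, adjusted p = 0.218), and the pool 2 value was 1.36. F13a1 showed the same direction in every treatment, with 1.18 in unstimulated cells (adjusted p = 0.251), 2.32 after LPS 24h (adjusted p = 1.09e-04) and 1.99 after LPS 24h followed by LPS 3h (adjusted p = 0.00113). Its own response to LPS 3h was 0.23 in WT and 0.40 in Irg1-/- cells and was not called in either. F13a1 was called among 71 genes after LPS 24h (0.598% of those tested) and among 14 genes after restimulation (0.118%).

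None of the other genes nearest to the threshold was called in another treatment. Dnajb12, a co-chaperone of the endoplasmic reticulum membrane, was at 10.9, 12.7 and 13.8 CPM in WT and at 93.3, 124 and 16.4 CPM in Irg1-/- cells (log2 fold change 2.64, SE 0.57, adjusted p = 0.218). Irg1-/- culture 3 lay just above WT, while cultures 1 and 2 lay far above it. The differences in the other treatments were 0.39, 2.24 (adjusted p = 0.0554) and -0.30. Zfp512b, a zinc finger gene, was at 7.11, 8.77 and 9.67 CPM against 0.927, 0.953 and 2.46 CPM (-2.59, adjusted p = 0.218), and its other differences were 0.21, 0.91 and -0.61. AC149090.1, on the scaffold JH584304.1, was at 565, 333 and 487 CPM against 114, 160 and 282 CPM (-1.32, adjusted p = 0.236), with -0.21, -0.37 and -1.16 elsewhere, the same direction in all 4 treatments. Sirpb1b, of the signal regulatory protein family, was at 2.01, 1.42 and 1.33 CPM in WT and at 0 in all 3 Irg1-/- cultures, at least 3.62-fold lower (adjusted p = 0.134). Sirpb1b belongs to a family of similar genes and overlaps Gm37468 on the other strand, so that its counts are uncertain.

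**Figure D5:**
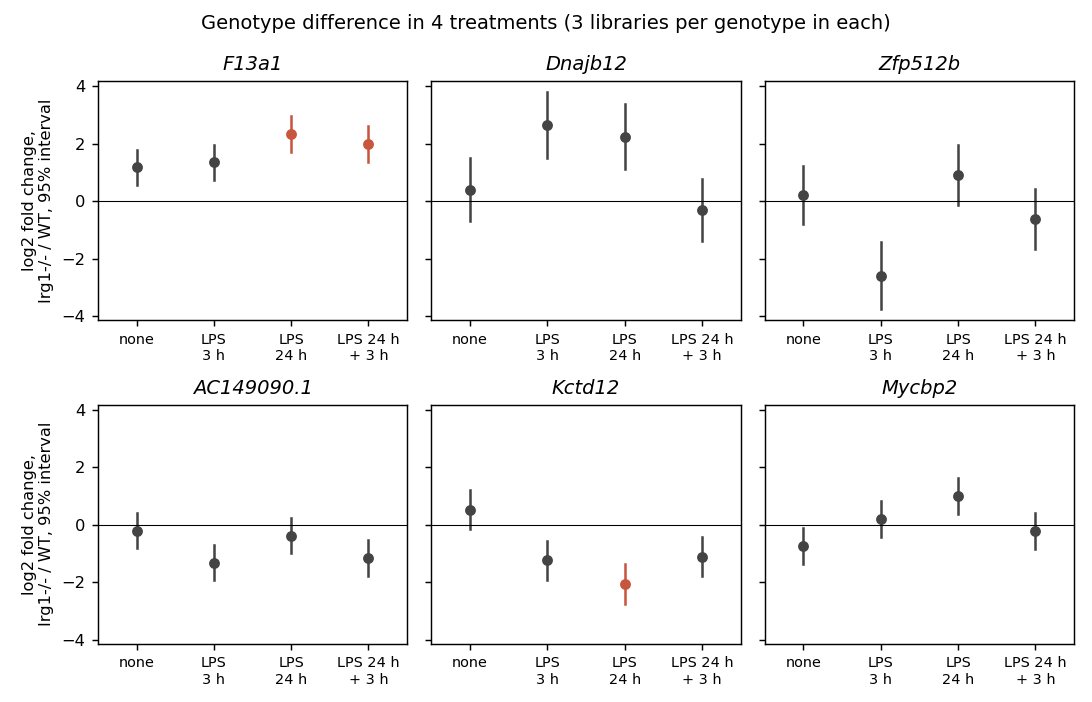
Log2 fold change between Irg1-/- and WT cells, with its 95% interval, for F13a1, Dnajb12, Zfp512b, AC149090.1, Kctd12 and Mycbp2 by treatment (unstimulated, LPS 3h, LPS 24h, and restimulation for 3 h following LPS 24h), with red for adjusted p under 0.05. F13a1 lies above 1 in all 4 treatments and is called in the treatments with a 24 h exposure, and Kctd12 is called after LPS 24h at -2.06.

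Genes on either side of Acod1 on chromosome 14, which flank the knockout allele, were read as a group. Of 8 genes there including Acod1, 6 were tested, and Acod1 was the 1 called after LPS 3h. Kctd12 (chr14:102976581-102982637), which encodes an auxiliary subunit of GABA-B receptors, was at 1185, 528 and 593 CPM in WT and at 455, 269 and 260 CPM in Irg1-/- cells. The log2 fold change was -1.23 (SE 0.33, adjusted p = 0.318), with -0.21 in pool 2. Unstimulated cells differed by 0.53 in the other direction, cells after LPS 24h by -2.06 (adjusted p = 0.00204), and restimulated cells by -1.11 (adjusted p = 0.214). LPS raised Kctd12 by 3.61 in WT and 1.85 in Irg1-/- cells on the log2 scale, and the interaction was not called (adjusted p = 0.638). Mycbp2 (0.21) and Ednrb (0.01) overlapped between the genotypes.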

How the data were processed

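RNA-seq counts of 24 libraries from WT and Irg1-/- BMDMs were used, in 8 groups of 3 cultures taken from the sample labels. The authors primed RNA with barcoded oligo-dT, pooled the barcoded cDNA, and amplified it by PCR. Reads were aligned with STAR (mm10), and the authors deposited read counts per gene without normalization. The counting program, the annotation and the strand setting are not given in the sources used here, so that genes overlapping on either strand and members of gene families are uncertain. No molecular identifier is described, and PCR copies were counted as reads.

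Of 22165 genes, 21822 were named from GENCODE M21, and the 5 summary lines entered neither library sizes nor tests. CPM values and log2 fold changes used TMM factors of edgeR 4.0.16 (R 4.3.3). filterByExpr on the groups kept 11878 genes. All groups were fitted together with edgeR's quasi-likelihood test (glmQLFit, glmQLFTest), and p-values were adjusted over all genes tested in each comparison by the Benjamini-Hochberg method with a threshold of 0.05. The SE is the size of the log2 fold change divided by the square root of F. A group with at most 3 counts in every library counts as being at the floor, where a fold is given as a bound from 3 counts per library. Counting floors cover counting error only. The biological coefficient of variation was 0.378, and no pair of LPS 3h libraries differed by as little as sampling noise. Exact permutation tests of 3 against 3 cultures cannot give a p under 0.1 and were not used.

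LPS-responsive genes had an adjusted p under 0.05 and an absolute log2 fold change over 1 in the response averaged over genotypes. Alternatives were DESeq2 1.42.0 and its size factors, other filters, only the compared groups, TMM factors without the 20 genes with most counts, the replicate number and the library pool as terms, pool 2 alone, and each culture left out. The procedure was tested on simulated counts.

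The comparison, the gene lists and the naming rule were chosen with earlier results of these data known. The rule named Acod1, every gene called, the 8 highest and 5 lowest averaged responses, the 3 most expressed members and the member with the smallest p of each list, and the 5 uncalled genes with the smallest p. Genes outside it were named after their values were seen: Il10, Il33, Arg1, H2-Ab1, Chil3, Klf4, Irf1, Osgin1, Gclm, Ftl1, Plek, Sumf2, Ednrb, Ccl12, Tnfsf15, Cldn12, Itgb8, Pnp2, Irgm1 and Ccdc9. Promoter sequences were from RefSeq (GRCm38.p6), where 9360 of the genes tested matched. Some results that the rule would name are not reported here.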

Additional observations from a re-analysis of the deposited data

Results flagged for a closer look

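The response of Acod1 to LPS 3h differed between the genotypes by a test of the difference itself. The response was 11.35 on the log2 scale in WT and 0.33 in Irg1-/- cells, a difference of -11.02 (SE 0.78, adjusted p = 6.60e-11, edgeR's quasi-likelihood test), and all 3 WT cultures after LPS lay above all 3 Irg1-/- cultures. Acod1 is the gene that the knockout targets. Single high cultures are described above by their values. No test for outlying cultures was run, since each group held 3 cultures.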

How the results depend on the processing

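Acod1 was called between the genotypes after LPS 3h under all 17 alternatives, at log2 fold changes of -12.17 to -9.76 and adjusted p-values of at most 2.72e-04. Next to 1 gene called there, DESeq2's Wald test called 8, no filter on low counts 32, a term for the library pool 3, a replicate block nested in genotype 2, replicate block and pool together 7, and pool 2 alone 2. With the pool as a term, the genes called beside Acod1 were Irgm1 (log2 fold change 4.88) and Ccdc9 (2.44), both higher in Irg1-/- cells. Both were also called, in the same direction, with replicate block and pool together and without a filter. Leaving out a culture gave 1 to 6 genes, with 6 without Irg1-/- replicate 1, 5 without Irg1-/- replicate 3 and 2 without WT replicate 3. The interaction gave 4 with DESeq2, 26 without a filter and 2 in pool 2 alone, and 1 to 4 with a culture left out (4 without unstimulated WT replicate 3, 2 without unstimulated Irg1-/- replicate 2). The response of Irg1-/- cells went from 4260 genes to 2361 with the pool as a term, 1893 with replicate block and pool, 2561 in pool 2 alone, and 3476 to 3985 with a culture left out. That of WT cells went from 3805 to 2477 in pool 2 alone, 2539 with the LPS library of pool 4 alone (chosen after seeing the data), and 3170 to 3421 with a culture left out. LPS-responsive genes numbered 2020 at an absolute log2 fold change over 2, and 4097 to 4310 with a culture left out. Intervals within -0.58 and 0.58 numbered 63. The cause of these shifts was not tested beyond the fewer libraries or the changed limits themselves.

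The replicate block without the pool gave 1 gene between genotypes, 4046 and 4399 genes in the WT and Irg1-/- responses and 1 for the interaction. Same-numbered WT and Irg1-/- libraries after LPS 3h deviated together at 0.070, 0.013 and 0.017, so that the numbers were not taken to pair the cultures. For the 87 other named genes, 1305 of 1472 values under the alternatives kept the direction, 14 were called, and 0 calls reversed. Genes under 10 CPM have wide intervals at this depth.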
